A study of Mus musculus with 59 samples.

Results

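The mitochondrially encoded genes were the 33 rows of the deposited expression table whose symbol begins with mt-, out of 20689 gene rows (51 further rows are ERCC spike-ins, synthetic RNAs added to each sample). They comprised 13 protein-coding genes, 2 ribosomal RNA (rRNA) genes and 18 transfer RNA (tRNA) genes, and they were followed over all 59 single mouse cells of the series. The cells are labelled as chemical-induced neurons with an age of 12 weeks, and the study's title is about chemical reprogramming of astrocytes in vivo. Each cell's content was taken up through a patch-clamp pipette in vivo. The labels give no strain, transgene, chemical, animal, untreated astrocyte or endogenous neuron for any cell, so there is 1 group, no comparison between conditions and no biological replicate. All values below are descriptions of these cells, with no test.

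Mitochondria keep a small circular genome of their own. Both of its strands are transcribed into long precursors that are cut largely at the tRNAs lying between the other genes. The protein-coding genes encode core subunits of respiratory complexes I, III and IV and of the ATP synthase (complex V), the 2 rRNAs form the core of the mitochondrial ribosome, and every other mitochondrial protein, including the polymerase that transcribes this genome, is made from nuclear genes and imported. Copies of stretches of the mitochondrial genome also lie within the nuclear chromosomes, and reads from such a copy can look the same as reads from the mitochondrion.

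Expression is given as FPKM (fragments per kilobase of gene, scaled to the depth of the cell). Within a cell, FPKM multiplied by the gene length behind it is a whole multiple of the value of 1 count. With the lengths used here, a median of 73.4% of values up to 20 counts came out whole per cell (65.8 to 79.4%). For the members, 882 of the 882 values above 0 came out whole within 0.02 counts, so the counts behind them could be recovered. Per cell, the total that the FPKM were scaled to had a median of 986288 counts (29043 to 3569925), and a median of 3984 genes (475 to 10310) were detected, which here means an FPKM of 1 or more. Of the lists of cell type markers, 14 of 14 neuronal markers, 9 of 10 oligodendrocyte markers, 6 of 10 microglia markers and 5 of 10 astrocyte markers reached that level in 30 cells or more, against 0 of 7 measured endothelial and mural markers. Of all genes in the table, 11.7% reached it. Neuronal markers were thus widely detected, as were most oligodendrocyte markers, while 5 astrocyte and 4 microglia markers stayed below 30 cells. Snap25, a synaptic vesicle fusion gene, was detected in 54 cells.

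The members differed first by where they lie. A stretch of the mitochondrial genome of 4653 bases, chrM:6390-11042 in GRCm38, is matched by a row of 7 annotated pseudogenes on the minus strand of chromosome 1, chr1:24611535-24616197. In transcript sequences of GENCODE M21 the copies of mt-Co2 (Gm28661, 681 bases aligned), mt-Atp6 (Gm10925, 678), mt-Co3 (Gm28437, 783), mt-Nd4l (Gm10222, 294) and the first 876 bases of mt-Nd4 (Gm28439) had 0 differences from the mitochondrial gene. The copy of the end of mt-Co1 (Gm29216) had 6 differences over its whole 492 bases (98.8% identity), most of them in its first bases. Without those first bases it aligned over 483 bases at 99.8% identity, and the stretch is counted from there. mt-Nd3 and its copy Gm28438 differed at 1 of 345 bases, T3C (mitochondrial base first, counted from the 5′ end of the gene). The starts of mt-Nd3 and mt-Co2 are shown with those of their copies because these 4 rows behave differently in the counts. Capitals mark the base that differs, and the pair of mt-Co2 has none.
mt-Nd3, chrM:9459-9518, plus strand: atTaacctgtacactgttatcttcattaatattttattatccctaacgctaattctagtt
Gm28438, chr1:24613060-24613119, minus strand: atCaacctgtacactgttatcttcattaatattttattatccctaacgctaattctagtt
mt-Co2, chrM:7013-7072, plus strand: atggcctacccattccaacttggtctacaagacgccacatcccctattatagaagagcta
Gm28661, chr1:24615506-24615565, minus strand: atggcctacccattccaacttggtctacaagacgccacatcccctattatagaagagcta

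Protein-coding members wholly inside the copied stretch were close to 0. The 6 genes mt-Co2, mt-Atp8, mt-Atp6, mt-Co3, mt-Nd3 and mt-Nd4l together held 434 counts over all 59 cells, whereas the 7 genes outside it or only partly inside held 2100423. For mt-Atp8 the copy is inferred from its position between copied neighbours, as no annotated transcript matched most of it at 99% identity. The 6 genes make up 26.3% of the protein-coding bases and 0.0207% of the protein-coding counts, or 145 counts per kb against 249902. The highest total among the 6 was 223 counts (mt-Nd3) and the lowest among the 7 was 22550 (mt-Nd6). In 50 of 59 cells every one of the 7 genes was above every one of the 6, and in each of the other 9 cells 1 or more of the 7 was itself at 0. Of the 2 partly copied genes, mt-Co1 has 31.3% and mt-Nd4 63.6% of its length inside. How reads that match both places were counted is not given in the sources used here, and its part in these totals was not tested.

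**Figure D1:**
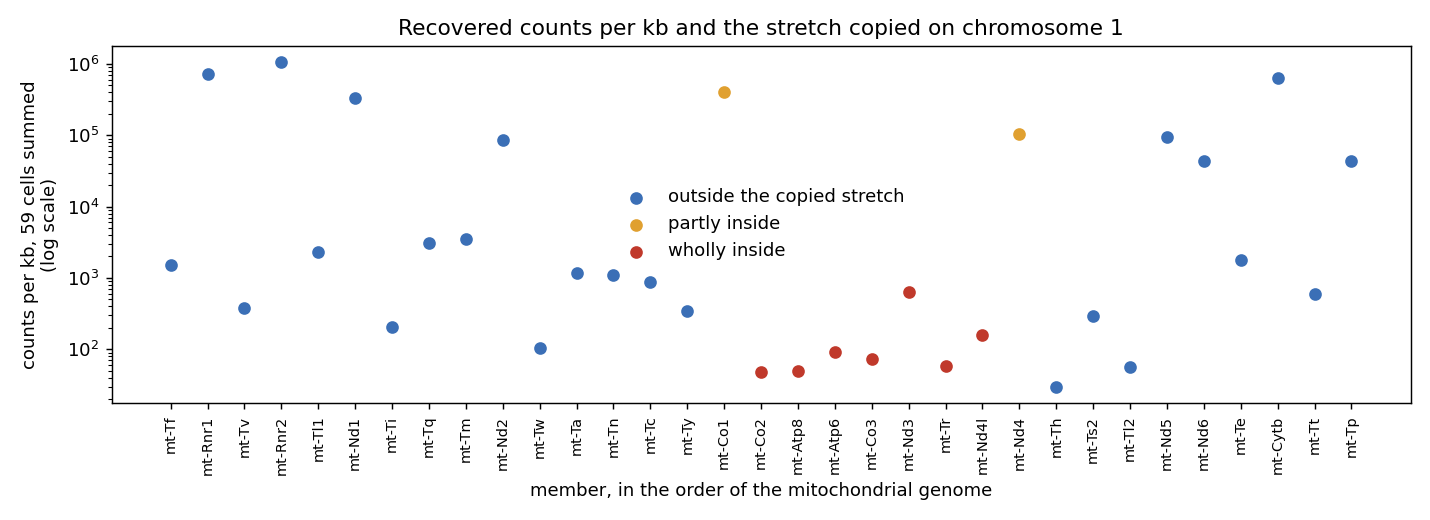
Recovered counts per kb, summed over 59 cells (y axis, log scale), for the 33 members in the order of the mitochondrial genome (x axis). Points are genes, coloured by whether they lie outside, partly inside or wholly inside the stretch with a copy on chromosome 1. The 7 members wholly inside lie between 48.2 (mt-Co2) and 641 (mt-Nd3) counts per kb, and the lowest protein-coding member outside, mt-Nd6, lies at 43449.

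The members inside the stretch were not alike among themselves. mt-Co2, a core subunit of cytochrome c oxidase, had 33 counts in 15 cells and no value above 4.69 FPKM. mt-Co3, another core subunit of the same enzyme, had 58 counts in 26 cells with a maximum of 8.37 FPKM. The proton channel subunit gene mt-Atp6 had 63 counts in 24 cells, and mt-Atp8, which shares 43 bases with it, had 10 counts in 8 cells. These 4 genes therefore reached FPKM of 10.1 at most (mt-Atp8), a level that a few counts give in a short gene. mt-Nd4l, a small complex I subunit gene, had 47 counts in 10 cells, of which 22 came from cell 42 and 16 from cell 7. The shared bases of mt-Atp8 and mt-Atp6 are shown in capitals at the end of mt-Atp8 (chrM:7907-7969), since a read lying there belongs to both genes.
mt-Atp8 end: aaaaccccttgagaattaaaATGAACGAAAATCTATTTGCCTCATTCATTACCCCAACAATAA

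For mt-Nd3, also a complex I subunit gene, the counts lay mostly on the row of the copy. Gm28438 had 7064 counts in 49 cells, with a median of 196 FPKM and a maximum of 3002 in cell 41, and mt-Nd3 had 223 counts in 4 cells. In the 55 cells in which mt-Nd3 was listed at 0, the copy had counts in 46, from 1 to 692 with a median of 67 counts. The 4 cells with mt-Nd3 were cells 41, 42, 43 and 44. Cell 41 had 36 counts on mt-Nd3 and 148 on the copy, cell 42 had 50 and 0, cell 43 had 31 and 31, and cell 44 had 106 and 36. These 4 cells had total counts between 142913 and 413318, below the median cell, and the labels give nothing that sets them apart. With the row of the copy added, a value for mt-Nd3 or its copy was present in 50 cells, with a median of 209 FPKM. The counts cannot show from which of the 2 genomes these reads came.

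**Figure D2:**
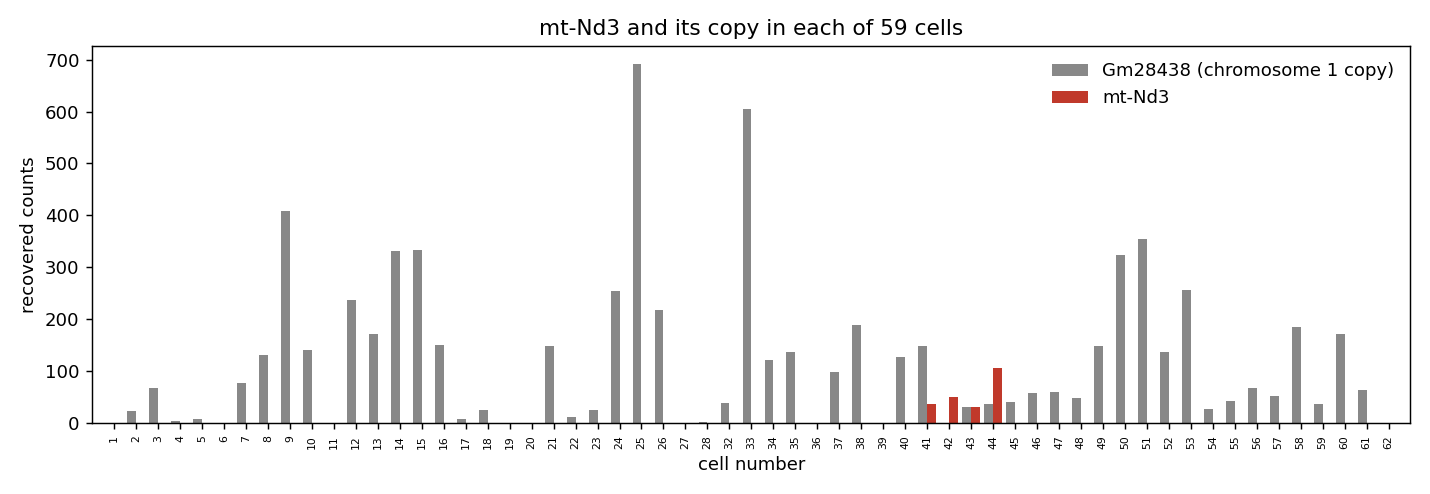
Recovered counts (y axis) of mt-Nd3 and of Gm28438, its copy on chromosome 1, in each of 59 cells (x axis, by cell number); bars are single cells and carry no error. mt-Nd3 counts occur in cells 41 to 44 only, and the largest copy value is 692 counts.

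The other copies held far fewer counts. Gm10222, the copy of mt-Nd4l, had 381 counts in 27 cells, Gm10925 had 144 in 27 cells, Gm28437 had 118 in 29 cells and Gm28661 had 40 in 23 cells. Each of these 4 had more counts than the mitochondrial gene it matches, but none approached the members outside the stretch. For the partly copied genes the order was the opposite, but their totals cover the whole gene and the copies only a part. Outside the stretch lie 1062 bases of mt-Co1 and 502 of mt-Nd4, so the split within the copied part is not known. Gm29216 had 64 counts where mt-Co1 had 621891, and Gm28439 had 19 where mt-Nd4 had 145594. Adding all 7 copies to the members left the share described next almost where it was, since the copies held 7830 counts in all.

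Mitochondrially encoded RNA made up a median of 7.62% of a cell's summed FPKM without ERCC rows, with quartiles of 4.77 and 13.5%. The lowest cell was cell 39 at 0.737% and the highest cell 25 at 42.6%. The protein-coding genes held a median of 3.99% (0.416 to 23.3%), the 2 rRNA genes 3.58% (0.320 to 23.8%) and the 18 tRNA genes 0.0828% (0 to 1.71%). Counted as recovered counts, which do not weight short genes up, the members had a median share of 4.36% (0.419 to 28.2%), and over all cells they held 4461366 counts, 6.58% of the total. Of those, 52.8% were rRNA, 47.1% protein-coding and 0.0935% tRNA.

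After cell 25, the highest shares were those of cells 33 (41.1%), 51 (38.4%), 14 (32.6%), 43 (31.5%), 10 (28.5%) and 41 (26.6%). Of these, cell 41 had the fewest genes detected (907) and cell 33 the most (7126). At the low end were cells 6 (0.894%), 48 (1.17%), 22 (1.66%), 17 (1.73%) and 20 (2.35%), with 1097 to 9148 genes. Cell 39, the lowest, had 82.9% of its summed FPKM on Rn18s-rs5, the row of the nuclear 18S rRNA, and cell 20 had 50.0% there. Cells 6 and 17, also low, had 15.2 and 9.75% there, below the median over cells of 19.3%. Both ends of the range thus held cells with few and with many detected genes.

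**Figure D3:**
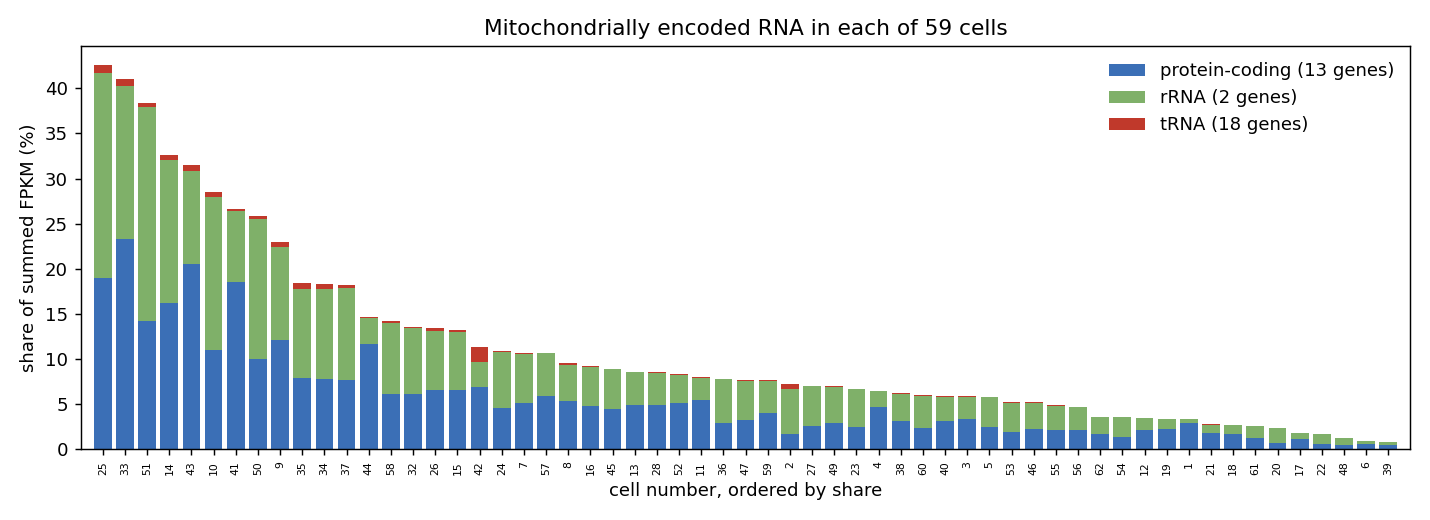
Share of summed FPKM without ERCC rows (y axis, %) held by protein-coding, rRNA and tRNA members in each of 59 cells (x axis, ordered by the share); stacked bars are single cells and carry no error. The share runs from 42.6% in cell 25 to 0.737% in cell 39, and tRNA is a thin layer except in cell 42, where it reaches 1.71%.

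Across the 59 cells the share of summed FPKM had a Spearman correlation of 0.22 with the number of genes detected, 0.13 with the total counts, -0.22 with the ERCC share and -0.30 with the share of Rn18s-rs5. Correlations with the mean log2(FPKM + 1) of marker lists were 0.08 for neuronal, 0.30 for oligodendrocyte, 0.38 for microglia and 0.48 for astrocyte markers (Pearson 0.42 for the last). The mean of the 10 astrocyte markers ran from 0 to 7.29 on that log2 scale over cells. Single astrocyte markers were detected in 10 cells (Aldh1l1, one of the defining markers) to 47 cells (S100b), with a median of 27. With Rn18s-rs5 left out of the sum, the correlations became 0.085 with genes detected, -0.0077 with total counts, -0.079 with the ERCC share and 0.13 with oligodendrocyte markers. Those with neuronal, microglia and astrocyte markers were then 0.081, 0.31 and 0.54. The points share library and depth, and the part of other cells' RNA in the mitochondrial share was not tested.

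Detection ranged widely within the protein-coding and tRNA classes. At least 30 of 59 cells had an FPKM of 1 or more for 12 of 33 members, where 11.7% of all 20689 genes reached that. The 12 were 7 of 13 protein-coding genes, 2 of 2 rRNA genes and 3 of 18 tRNA genes. mt-Rnr2, mt-Nd1, mt-Co1, mt-Nd4 and mt-Cytb were detected in all 59 cells, among only 16 genes of the table with that property. The 7 protein-coding genes are the same 7 that lie outside or partly inside the copied stretch. The 6 wholly inside it were detected in 4 to 20 cells, fewer than the 3 leading tRNAs, and the 18 tRNAs in 2 to 41.

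The 2 rRNAs stood at the head of the module with 1 protein-coding gene between them. mt-Rnr2, the large ribosomal subunit RNA (chrM:1094-2675), ran from 458 FPKM in the lowest cell to 76578 in the highest, with a median of 9831. mt-Rnr1, the small subunit RNA (chrM:70-1024), had a median of 5994 FPKM and a maximum of 56675 in cell 25. It was listed at 0 in cell 20, where all members together had 400 counts. mt-Rnr2 was above mt-Rnr1 in 55 of 59 cells, with a median log2 ratio of 0.70 (quartiles 0.37 and 1.04).

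Among the protein-coding genes outside or partly inside the copied stretch, mt-Cytb was highest. This gene of cytochrome b, the core of complex III, had a median of 6002 FPKM (30.1 to 50815), was the highest of the 7 in 47 cells and the lowest in none. mt-Co1, the catalytic subunit of cytochrome c oxidase, followed at 3950 FPKM (44.6 to 23337), and mt-Nd1, which lies where the membrane arm of complex I meets its peripheral arm, at 3082 FPKM (2.18 to 21406). mt-Nd4 (1160 FPKM), mt-Nd5 (913) and mt-Nd2 (729), the large proton-pumping subunits of complex I, formed a lower group. mt-Nd6, the sole protein-coding gene of the other strand, was lowest at a median of 369 FPKM (0 to 3883), and it was the lowest of the 7 in 44 cells.

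Neighbours in this order did not all keep their places from cell to cell. mt-Cytb was above mt-Rnr1 in 27 of 59 cells, mt-Nd5 above mt-Nd2 in 33 and mt-Nd4 above mt-Nd5 in 39. For mt-Nd5 and mt-Nd2 the median log2 ratio was 0.19 with quartiles of -0.77 and 0.67, so these neighbours did not differ beyond their spread. The steps from mt-Co1 to mt-Nd1 (48 cells), from mt-Nd1 to mt-Nd4 (55 cells) and from mt-Nd2 to mt-Nd6 (49 cells) were seen in most cells. When the counts of the 2 partly copied genes were divided by the length outside the stretch alone, mt-Co1 had a median of 5746 and mt-Nd4 of 3184 FPKM. mt-Cytb was then above mt-Co1 in 27 of 59 cells and mt-Nd4 above mt-Nd1 in 24, and neither order could be told from the spread.

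**Figure D4:**
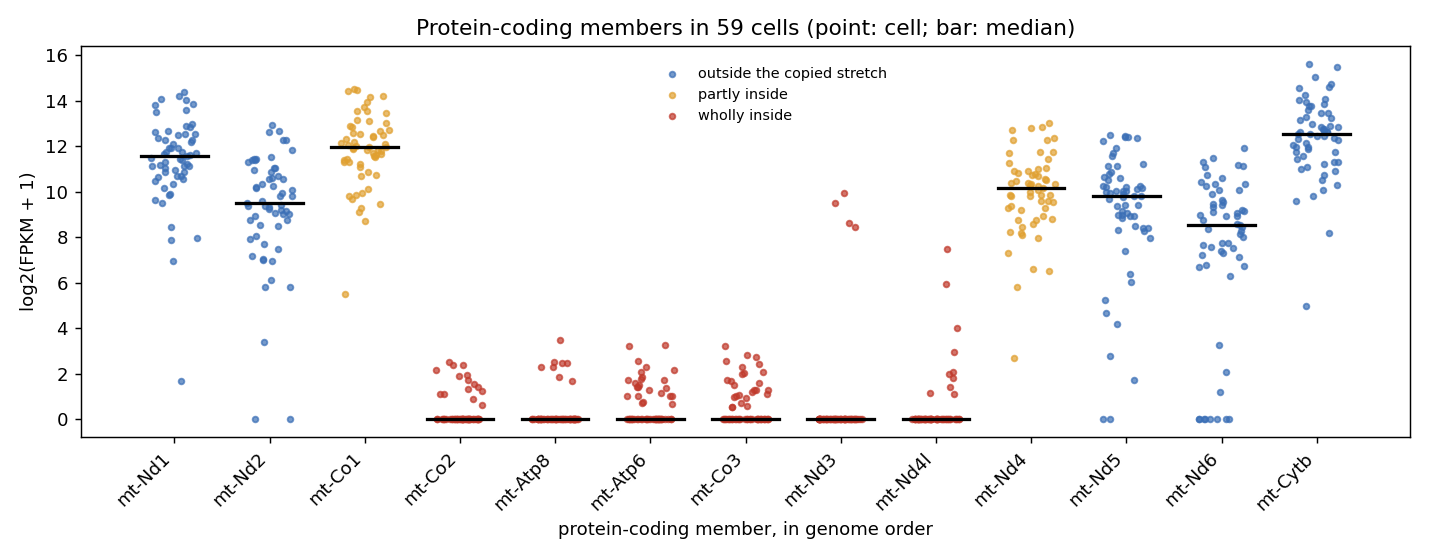
log2(FPKM + 1) (y axis) of the 13 protein-coding members in the order of the genome (x axis); each point is 1 of 59 cells, the bar is the median over cells, and colour gives the position relative to the stretch copied on chromosome 1. The 6 members wholly inside have a median of 0, and mt-Cytb, mt-Co1 and mt-Nd1 lie highest.

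Within the protein-coding FPKM of a cell, mt-Cytb made up a median of 34.8% (quartiles 29.6 and 41.0%), mt-Co1 24.3%, mt-Nd1 19.5%, mt-Nd4 6.79%, mt-Nd2 5.04%, mt-Nd5 5.03% and mt-Nd6 2.40%. The 4 cells with fewer than 1000 protein-coding counts included cell 20, where mt-Nd1 took 75.3%. Single cells above that limit departed from the common pattern as well. Those named next had 1198 (cell 39) to 9929 (cell 46) protein-coding counts, below the median over cells of 16832. The mt-Nd1 share of cell 39 rests on 1 count. Among the other 55 cells, mt-Nd1 was 0.114% in cell 39 and 36.8% in cell 62, mt-Co1 reached 50.7% in cell 48, mt-Nd4 22.3% in cell 27 and mt-Nd2 18.2% in cell 46. The quartiles over all 59 cells were 1.07 and 3.12% for mt-Nd6 and 16.7 and 21.7% for mt-Nd1.

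The 7 protein-coding genes varied together over cells. Their 21 pairwise Spearman correlations of FPKM had a median of 0.81, from 0.68 (mt-Nd4 and mt-Nd5) to 0.91 (mt-Co1 and mt-Cytb, and likewise mt-Nd1 and mt-Nd5 at 0.91). mt-Nd6, from the other strand, correlated with the other 6 at between 0.73 (mt-Nd4) and 0.83 (mt-Nd1). With the 2 rRNAs the median was 0.72. For comparison, 74 nuclear genes, which lie at lower levels, of respiratory complexes I, III, IV and V had a median of 0.35 among themselves, and between them and the mitochondrial genes it was 0.16. The FPKM of a cell share 1 scaling factor, which moves all members alike and is part of each correlation.

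Among 2401 other genes detected in at least 30 cells, whose median Spearman correlation with the summed protein-coding FPKM was 0.12, Gm28438 (the copy of mt-Nd3) was most alike at 0.62. Ndrg2 followed at 0.53, a gene known to be high in astrocytes. Plekhb1 (0.53), Gng13 (0.53) and Kif5b (0.52), a motor protein gene that carries cargo such as mitochondria along microtubules, came next. Of the nuclear respiratory genes, Cox6a1 was the most alike at 0.46, and their median was 0.15.

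The balance of rRNA to protein-coding RNA varied more than its median tells. The log2 ratio of their summed FPKM had a median of 0.01, with quartiles of -0.43 and 0.46, from -2.59 in cell 1 to 1.59 in cell 2, and it was above 0 in 32 cells and below in 27. This ratio had a Spearman correlation of 0.67 (Pearson 0.52) with the share of Rn18s-rs5 over the 59 cells, and of 0.69 without the 2 cells farthest from the median on that share. The 5 cells with the lowest Rn18s-rs5 share, 2.19 to 7.26%, had ratios of -1.38 to -0.61. Of the 5 with the highest, 55.6 to 82.9%, 4 had ratios of 0.34 to 0.83 and cell 39 had -0.39. The share of Rn18s-rs5 had a Spearman correlation of -0.42 with the share of the protein-coding members and of -0.07 with that of the 2 mitochondrial rRNAs. Rn18s-rs5 is itself part of the sum behind both shares. With it left out of that sum, the Spearman correlations were -0.21 for protein-coding members and 0.20 for mitochondrial rRNAs (Pearson -0.27 and -0.04). Which share moved with Rn18s-rs5 thus depended on the sum and on the measure. The ratio of mt-Rnr2 to mt-Rnr1 followed the share of Rn18s-rs5 less, at 0.16. The ratio of rRNA to protein-coding RNA had a correlation of 0.05 with the total counts and -0.13 with genes detected.

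Lars2, the nuclear gene of the mitochondrial leucyl-tRNA synthetase, was the one synthetase gene of the 19 measured that was detected in all 59 cells, with a median of 519 FPKM. Its highest value was 103329 FPKM in cell 6 and the second highest 12744 in cell 56. Over cells its FPKM had a Spearman correlation of 0.12 with mt-Rnr2 and 0.61 with Rn18s-rs5. The transcript of mt-Rnr2 gave no alignment to Lars2 transcripts in the search used here.

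**Figure D5:**
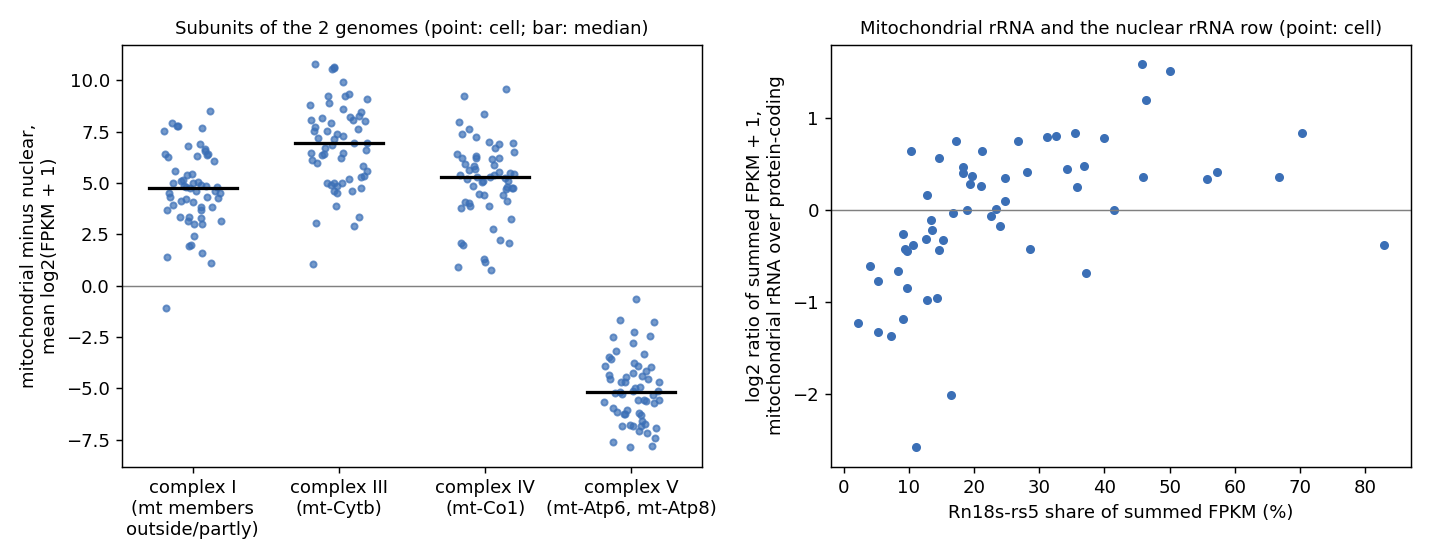
Left, mean log2(FPKM + 1) of mitochondrial minus nuclear subunits (y axis) for 4 respiratory complexes (x axis), each point 1 of 59 cells and the bar the median. Right, log2 ratio of mitochondrial rRNA to protein-coding FPKM (y axis) against the share of Rn18s-rs5 in summed FPKM (x axis, %), each point 1 cell. Complexes I, III and IV, shown by genes outside or partly inside the copied stretch only, have medians above 0. Complex V, shown by mt-Atp6 and mt-Atp8 inside it, has a median of -5.18. On the right, the 5 cells with the lowest Rn18s-rs5 share all lie below -0.6.

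Respiratory complexes I, III, IV and V are assembled from subunits of both genomes. Their 74 nuclear genes were each detected in at least 30 cells, where 11.7% of all genes were. Ndufb2 was lowest, at 30 cells and a median of 1.05 FPKM. The median over the 74 genes was 68.3 FPKM, and the highest median, 658 FPKM, was that of Cox8a, a small cytochrome c oxidase subunit. Of the 74, 2 had a median above that of mt-Nd6, the lowest of the 7 mitochondrial genes outside or partly inside the copied stretch. On the log2(FPKM + 1) scale the mean of the 5 complex I genes mt-Nd1, mt-Nd2, mt-Nd4, mt-Nd5 and mt-Nd6 exceeded that of 36 nuclear subunits by a median of 4.74 (quartiles 3.69 and 6.18), in 58 of 59 cells. mt-Cytb exceeded the mean of 9 nuclear complex III genes by 6.94, and mt-Co1 that of 12 nuclear complex IV genes by 5.31, in all 59 cells each. mt-Co2 and mt-Co3 of complex IV and mt-Nd3 and mt-Nd4l of complex I, all inside the copied stretch, were left out here. The median of mt-Co2 and of mt-Co3 was 0 FPKM. For complex V, whose mitochondrial genes all lie inside the stretch, the direction was the opposite. The complexes were thus not compared on like genes. mt-Atp6 and mt-Atp8, which lie inside the copied stretch, were below the 17 nuclear ATP synthase genes by a median of 5.18 on the log2 scale, in 59 of 59 cells. Over the 7 mitochondrial genes outside or partly inside the stretch, the median difference from all 74 nuclear genes was 4.94. Over all 13 no direction could be given, since the 6 genes near 0 make it depend on the pseudocount: it was 0.35 with 1 added to the FPKM, -0.31 with 0.1 and 1.16 with 10.

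Nuclear genes of mitochondrial transcription, RNA processing and tRNA synthetases reached 30 cells about as often as genes of the whole table, where 11.7% did. Their median detection was 11.5 cells per gene for transcription and RNA processing and 11 for the synthetases, against 7 over all genes. Of 26 measured genes of mitochondrial transcription and RNA processing, 3 reached 30 cells, led by Hsd17b10 (37 cells, 16.0 FPKM), a subunit of mitochondrial RNase P, which trims tRNA 5′ ends. Mterf1a, of the mitochondrial transcription termination factor family, was detected in 2 cells. Of the 19 tRNA synthetase genes 3 reached 30 cells, with Ears2 lowest at 2. Genes of the outer membrane, carriers and import reached it in 15 of 16, led by Slc25a4, the ADP/ATP carrier, in 55 cells at 240 FPKM, with Timm44 lowest at 22 cells.

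mt-Nd6 lies on the strand opposite to the other protein-coding genes and overlaps mt-Nd5 by 14 bases. Its FPKM was below the mean of the other 6 complex I members in 57 of 59 cells, with a median log2 ratio of -1.46 (quartiles -2.45 and -1.04), and below mt-Nd5 in 52 cells. Against the mean of mt-Nd1, mt-Nd2, mt-Nd4 and mt-Nd5 alone, without mt-Nd3 and mt-Nd4l of the copied stretch, the median log2 ratio was -2.04. It was listed at 0 in 8 cells. Whether the counting used strand is not given, so antisense RNA over mt-Nd6 and mt-Nd6 itself cannot be told apart.

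The tRNA genes were mostly near the limit of detection. A median of 4 of 18 was detected per cell (0 to 15), and 9 cells had none. All 18 together held 4172 counts, of which mt-Tp alone, the proline tRNA gene next to the control region, held 2950 (70.7%). mt-Tp was detected in 41 of 59 cells (69.5%, exact 95% interval 56.1 to 80.8%), had a median of 213 FPKM and a maximum of 5525 in cell 42, and was the highest tRNA row in 40 of the 50 cells with any. mt-Tq, the glutamine tRNA, followed in 35 cells and mt-Tm, the methionine tRNA, in 30. At the low end, mt-Th (histidine) and mt-Tl2 (a leucine tRNA) were detected in 2 cells each, with 2 and 4 counts. The sequences show the 3 most often detected tRNAs, then these 2 least often detected ones; each is shorter than 75 bases, so a longer read over it would also cover its neighbours.
mt-Tp, chrM:15356-15422, minus strand: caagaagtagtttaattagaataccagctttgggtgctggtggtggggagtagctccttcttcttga
mt-Tq, chrM:3772-3842, minus strand: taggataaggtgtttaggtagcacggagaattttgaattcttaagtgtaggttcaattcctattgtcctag
mt-Tm, chrM:3845-3913, plus strand: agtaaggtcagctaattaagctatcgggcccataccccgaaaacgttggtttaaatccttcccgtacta
mt-Th, chrM:11546-11612, plus strand: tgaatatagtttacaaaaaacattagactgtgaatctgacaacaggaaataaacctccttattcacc
mt-Tl2, chrM:11671-11741, plus strand: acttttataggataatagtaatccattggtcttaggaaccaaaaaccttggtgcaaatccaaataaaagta

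By strand, the 11 tRNA genes on the plus strand of the annotation held 637 counts (median 17 per gene) and the 7 on the minus strand 3535, or a median of 81 per gene. The minus-strand tRNAs were detected in a median of 15 cells per gene (6 to 41) and the plus-strand ones in 8 (2 to 30). As for mt-Nd6, RNA of the opposite strand over these genes cannot be told apart. The 1 tRNA with a row here that lies wholly inside the copied stretch, mt-Tr (arginine), had 4 counts in 3 cells. mt-Tl2 and mt-Th outside the stretch were as low. The number of tRNA genes detected in a cell had a Spearman correlation of 0.88 with the mitochondrial counts of that cell and of 0.58 with its total counts. Cell 62, with 13588 mitochondrial counts, nevertheless had 0 tRNA counts, and cell 36, with 44176, had 1. The annotated mitochondrial tRNA genes without a row here, mt-Ts1, mt-Td, mt-Tk and mt-Tg, all lie inside the copied stretch. They were not analysed here.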

How the data were processed

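The values are the authors' deposited FPKM, 1 column for each of 59 cells. Per the submitters' processing notes, STAR 2.5.3a and featureCounts 1.5.3 were used with GRCm38. Which annotation release was counted, whether strand was used and how multi-mapped reads were handled is not given in the sources used here. Gene lengths, positions and transcript sequences came from GENCODE M21 (GRCm38), which may not be the authors' release and gave a length for 19393 of 20689 genes.

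Counts were recovered from the spacing of FPKM times length in each cell. In 5 cells nearly all low values were even multiples (86.7% or more, against at most 45.8% elsewhere), and the smallest step was taken as 1 count, so their counts may be of single read mates. In counts simulated at the depths found here, with member lengths kept correct, depth and all member counts were recovered in 59 of 59 cells. That setting cannot test wrong member lengths. Whether the totals include ERCC reads is not known. Rn18s-rs5 entered the sums except where stated. Copies were found with blastn 2.17.0 against all transcripts at an identity of 99% or more over at least 100 bases, so copies without an annotated transcript were not looked for.

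The members and lists were chosen with earlier results of these data known. All members could be named, and from each list its most and least often detected gene, with Lars2, Rn18s-rs5 and the 5 other genes most alike to the protein-coding sum. The copies on chromosome 1, Cox8a and Cox6a1 fall outside this rule and were named after their values were seen. Intervals are exact Clopper-Pearson and cover counting error over cells only. Analyses used Python 3.11.15 with pandas 2.3.3 and scipy 1.17.1.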

Additional observations from a re-analysis of the deposited data

How the results depend on the processing

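Each value was recomputed under the alternatives set for it: ERCC rows kept, Rn18s-rs5 or the 50 highest genes left out, only the 46 cells with 2000 genes, other detection thresholds and pseudocounts, rescaled cells, and means for medians. Several were added after seeing the data. Of 104 alternative values, 96 stayed within the limit set for their kind. The limit was 1.5 times for counts and 0.134 for correlations. For the percentage of cells with mt-Cytb highest it was 10.9, taken from the exact interval. For all other values it was 1 SD over cells, a wide limit where cells differ as much as here. Within it, leaving out the 50 highest other genes of each cell raised the median share from 7.62 to 14.8% (protein-coding 7.56%, rRNA 8.10%, tRNA 0.186%), the mean over cells was 11.2% (tRNA 0.201%), and leaving out Rn18s-rs5 gave 10.6% (rRNA 5.41%). The percentage of cells in which mt-Cytb was the highest protein-coding gene went from 79.7% to 42.4% with lengths outside the copied stretch. The difference between mitochondrial and nuclear respiratory genes went from 0.35 to 2.17 on the log2 scale with list medians, to -0.31 with a pseudocount of 0.1, to 1.16 with one of 10, and to 4.94 with the 7 genes outside or partly inside the stretch, which follows from leaving out 6 genes near 0. With Rn18s-rs5 left out, the Spearman correlations of the share with neuronal, microglia and astrocyte markers stayed within the limit, at 0.081, 0.31 and 0.54. Those that moved beyond it became 0.085 with genes detected, -0.0077 with total counts, -0.079 with the ERCC share and 0.13 with oligodendrocyte markers. Over the 46 cells that with total counts became -0.0082. The cause was not tested. No paired analysis was possible because there is 1 group. Depth limits the tRNA genes and the cells with few mitochondrial counts, and no molecular identifiers are named in the sources used here.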
